A study of Mus musculus with 4 samples.

Results

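The 5 genes described here, Tcf15, Meox1, Meox2, Nkx3-2 and Uncx, encode transcription factors known from somite patterning. They were chosen by name and matched by Ensembl identifier, and all 5 were found in each of the 4 gene tables, among 27514 shared identifiers. On the mouse build GRCm38 (mm10), Tcf15 (ENSMUSG00000068079) lies at chr2:152143056-152149097, Meox1 (ENSMUSG00000001493) at chr11:101877510-101894354, Meox2 (ENSMUSG00000036144) at chr12:37108540-37179534, Nkx3-2 (ENSMUSG00000049691) at chr5:41761483-41764220 and Uncx (ENSMUSG00000029546) at chr5:139543865-139548179.

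Somites are blocks of paraxial mesoderm that form in pairs beside the neural tube and give rise to vertebrae, ribs, dermis and trunk muscle. Tcf15 (paraxis) is a basic helix-loop-helix factor needed for somites to become epithelial. Meox1 and Meox2 are homeobox factors of the somite that act in sclerotome and muscle development. Uncx marks the posterior part of each somite and is needed for the proximal ribs and pedicles, and Nkx3-2 (Bapx1) acts in sclerotome on the way to cartilage. The most anterior paraxial mesoderm, in the head, does not form somites and borders the pharyngeal mesoderm in which Tbx1 acts.

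Droplet single-cell RNA-seq counts came from cells sorted for GFP, which a Cre recombinase expressed from the Tbx1 locus switches on, so GFP marks cells that express Tbx1 and their descendants. Controls (Ctrl) were Tbx1Cre/+;Rosa26-GFPflox/+ embryos and conditional knockouts (cKO) were Tbx1Cre/flox;Rosa26-GFPflox/+ embryos, all on the Swiss Webster background. The Cre insertion inactivates 1 copy of Tbx1, so the controls carry 1 working copy. Each genotype was sampled at embryonic day (E) 8.5, from the upper part of the body, and at E9.5, from the pharyngeal apparatus and heart, and the study lists the E9.5 tissue as taken with the back. The study gives a slightly higher range of somite counts for the cKO E8.5 embryos than for the Ctrl E8.5 embryos. Fewer embryos were pooled for cKO than for Ctrl at each stage.

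Each group was 1 library of pooled embryos. No test between groups was therefore possible, and genotype and library, or stage and dissection, cannot be told apart. The libraries held 1434 cells (Ctrl E8.5), 1090 cells (cKO E8.5), 5453 cells (Ctrl E9.5) and 6266 cells (cKO E9.5), with a median of 15910.5 to 23984 unique molecular identifiers (UMIs) per cell, and any 2 libraries shared 2 to 55 cell barcodes. Levels are UMIs per 1000000 UMIs of the shared genes (UPM), and brackets give exact Poisson 95% intervals, or 95% intervals of a ratio, that cover counting error only. Tbx1 itself was read at 86.4 UPM in Ctrl E8.5, 118.3 UPM in cKO E8.5, 103.5 UPM in Ctrl E9.5, while cKO E9.5 had 134.5 UPM. Reads from the 3′ end count transcripts whether or not an upstream exon has been removed, so these values do not check the genotype labels.

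Tcf15 stood at 76.7 UPM (73.3 to 80.2) in Ctrl E8.5, 88.8 UPM (85.2 to 92.5) in cKO E8.5, 10.2 UPM (9.58 to 10.9) in Ctrl E9.5, while cKO E9.5 had 17.5 UPM (16.7 to 18.3). Meox1 stood at 69.3 UPM (66.1 to 72.6), 108.0 UPM (104.0 to 112.1), 35.6 UPM (34.4 to 36.8) and 109.5 UPM (107.5 to 111.6) in the same order. Both genes were lowest in Ctrl E9.5, and no intervals overlapped between libraries except those of Meox1 in both cKO libraries. Uncx varied least, at 4.76 UPM (3.94 to 5.69), 5.28 UPM (4.43 to 6.25), 3.36 UPM (3.00 to 3.75) and 4.61 UPM (4.20 to 5.04), and its intervals in Ctrl E8.5, cKO E8.5 and cKO E9.5 overlapped. Meox2 was seen in few cells, at 0.951 UPM (0.609 to 1.42), 2.88 UPM (2.26 to 3.61), 1.89 UPM (1.62 to 2.19) and 4.42 UPM (4.03 to 4.85), so that it was higher in the cKO than in the control library of each stage.

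Nkx3-2 was at the limit of detection. It gave 1 UMI in Ctrl E8.5, 0 UMIs in cKO E8.5, 2 UMIs in Ctrl E9.5, while cKO E9.5 had 2 UMIs, each from a separate cell. No library passed 3 UMIs, and no ratio was computed for it.

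**Figure D1:**
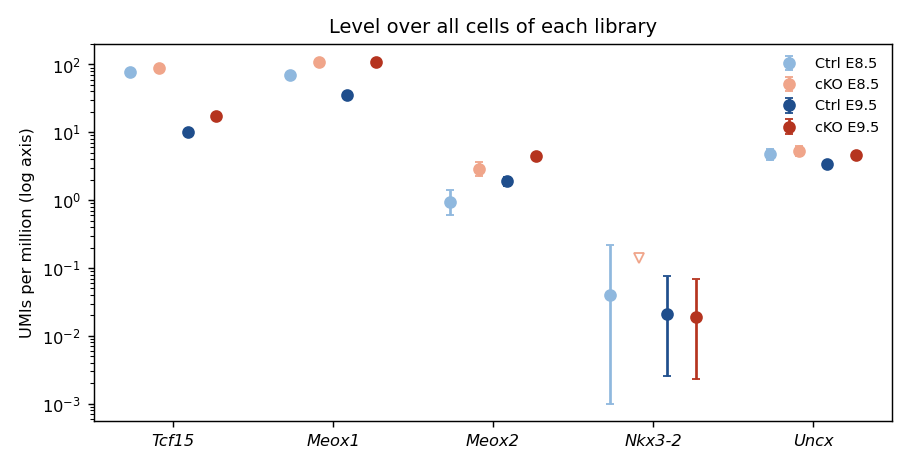
Level of each of the 5 genes over all cells of a library, in UPM on a log axis; bars are exact Poisson 95% intervals, and the open triangle is the upper bound for a count of 0. Tcf15 and Meox1 are lowest in Ctrl E9.5, and Nkx3-2 stays below 1 UPM in all 4 libraries.

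Between genotypes at E8.5, Meox2 was the member past 2-fold, with a log2 ratio of cKO over Ctrl of 1.60 (0.92 to 2.33) from 74 and 24 UMIs, a call that was lost where at least 100 UMIs were asked for. Meox1 was higher by 0.64 (0.55 to 0.73) on the log2 scale, Tcf15 by 0.21 (0.12 to 0.30), and the interval for Uncx, 0.15 (-0.21 to 0.52), held 0. Counting as called a gene with at least 20 UMIs over both libraries and at least a 2-fold ratio, 1 of the 4 members with enough UMIs was called higher and 0 lower. Over all 12762 genes with enough UMIs, 2.92% were called higher and 1.30% lower.

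At E9.5 Meox1 was 3.08-fold higher in cKO than in Ctrl, a log2 ratio of 1.62 (1.57 to 1.68) from 11462 and 3357 UMIs. Meox2 was 2.34-fold higher (log2 1.23, 0.98 to 1.49), Tcf15 1.71-fold higher (log2 0.77, 0.66 to 0.89) and Uncx 1.37-fold higher (log2 0.45, 0.25 to 0.66). Thus 2 of 4 members were called higher and 0 lower, where 3.56% of 15130 genes were called higher and 9.80% lower. The median log2 ratio of all those genes was -0.26, so each member stood further from the middle of the genes than from 0. With TMM scaling, which centres the libraries on the bulk of the genes, the ratio of Tcf15 was 1.03, past 2-fold.

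From E8.5 to E9.5 in controls, Tcf15 was lower by 2.91 on the log2 scale (ratio -2.91, -3.02 to -2.80) and Meox1 had a ratio of -0.96 (-1.04 to -0.88), just short of 2-fold. Uncx had -0.50 (-0.81 to -0.18). Meox2 had 0.99 (0.37 to 1.67), also just short, and passed 2-fold in thinned cells (1.09) and without endothelial cells (1.16). In this comparison 1 of 4 members was called lower and 0 higher, beside 2.98% and 17.9% of 14441 genes, whose median ratio was 0.39. In the cKO libraries Tcf15 had a ratio of -2.35 (-2.44 to -2.26), Meox1 0.02 (-0.04 to 0.08), Meox2 0.62 (0.27 to 1.0) and Uncx -0.20 (-0.48 to 0.09). There 1 of 4 members was called lower and 0 higher, beside 5.94% and 11.3% of 14376 genes. The comparisons across stage and across genotype share libraries, so their values are not independent of each other.

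The share of cells with a UMI was compared after each cell had been thinned at random to 10000 UMIs, which left out 135, 84, 555 and 718 shallower cells, in the order of the libraries above. Meox1 was seen in 30.3% of Ctrl E8.5 cells, 37.2% of cKO E8.5 cells, 18.6% of Ctrl E9.5 cells, while in cKO E9.5 the share was 38.3%. The difference between genotypes was 6.92 percentage points (3.03 to 10.8) at E8.5 and 19.7 points (18 to 21.4) at E9.5. Tcf15 was seen in 37.6% and 35.2% of cells at E8.5, a difference of -2.38 points (-6.31 to 1.59), although its UPM was higher in cKO E8.5. A Tcf15-positive cell held 2.91 UMIs of it on average in Ctrl E8.5 and 4.59 in cKO E8.5, before thinning, in libraries whose median cell differed in depth. At E9.5 Tcf15 was seen in 7.96% of Ctrl and 11.2% of cKO cells (difference 3.27 points, 2.14 to 4.39), and Meox2 in 1.55% and 3.68% (2.13 points, 1.52 to 2.74). Before thinning, Meox1 was seen in 37.3%, 45.0%, 23.3% and 44.9% of cells, and Tcf15 in 46.4%, 45.7%, 10.8% and 14.9%, in the order of the libraries.

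Cells were then placed in groups by marker lists, a cell meeting a list with UMIs for at least 3 of its markers. The lineage lists (endothelial, epithelial, neuronal, neural crest, blood and cardiomyocyte) came first. A cell meeting none of these went to the mesoderm list it met with most markers, and ties were left out. The mesoderm lists were somite, branchiomeric muscle, heart progenitor and the broad progenitor list described below. Cells said to meet a mesoderm list are those placed by this rule. The endothelial, epithelial, neuronal and cardiomyocyte groups were higher than the other cells by at least 1.5-fold for every marker set aside as a check. The somite list (Pax1, Pax3, Pax7, Dmrt2, Ripply1, Sim1, Tbx18 and Foxc2) took 6, 3, 29 and 15 cells by this rule. A cell with at least as many markers of another mesoderm list, or one meeting a lineage list, is not among them. In the cells taken, 1 to 3 of 6 check markers were higher, and Lfng, a segmentation gene, was not. These cells are therefore called by the list and not as somite cells, and with fewer than 20 cells in 3 libraries no ratio was taken. The lists were also run with 2 markers asked for in each lineage and mesoderm list, which can move a cell between groups. The somite list then took 223 Ctrl and 197 cKO cells of E9.5. In those cells Meox1 was 42.1 UPM (35.3 to 50) and 69.3 UPM (60.0 to 79.5), Tcf15 17.6 UPM (13.2 to 22.9) and 27.8 UPM (22.1 to 34.5), and Meox2 1.92 UPM (0.703 to 4.17) and 7.20 UPM (4.46 to 11). Uncx gave 1 and 9 UMIs there.

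Outside such cells, a large share of the UMIs of Tcf15 and Meox1 lay in a broad group met through Arg1, Rdh10, Vamp8, Mpped2, Aplnr, Nrg1, Tbx1 and Wnt5a. Vamp8 was in 57.1% to 81.1% of all cells and Tbx1 in 65.2% to 73.2%, so this group of 781, 590, 1224 and 2126 cells is wide, and it is called the broad progenitor group. It held 66.5% and 83.4% of the Tcf15 UMIs of Ctrl E8.5 and cKO E8.5, where it held 57.4% and 58.6% of all UMIs. At E9.5 it held 43.9% and 47.3% of the Tcf15 UMIs and 41.3% and 55.8% of the Meox1 UMIs of Ctrl and cKO, with 23.1% and 36.7% of all UMIs. Mesenchyme was called last, on Pdgfra, Twist1, Prrx1, Prrx2, Col3a1 and Col1a2, among cells that met no lineage list and no mesoderm list. Its levels, ratios and shares therefore also depend on which cells the other lists took. Mesenchyme held a further 40.6% and 36.9% of Tcf15 at E9.5 and 41.5% and 30.5% of Meox1, with 31.5% and 39.0% of all UMIs. In cKO E9.5 its share of both genes was thus below its share of all UMIs.

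Tcf15 in the broad progenitor group was 88.9 UPM (84.1 to 93.9) in Ctrl E8.5, 126.4 UPM (120.8 to 132.2) in cKO E8.5, 19.4 UPM (17.6 to 21.4) in Ctrl E9.5, while cKO E9.5 had 22.6 UPM (21.1 to 24.1). In mesenchyme it was 70.4 UPM (60.2 to 81.9), 59.4 UPM (49.9 to 70.1), 13.2 UPM (11.9 to 14.5) and 16.5 UPM (15.3 to 17.8). Both groups were thus lower at E9.5 in both genotypes. In endothelial cells Tcf15 was 45.4 UPM (37.1 to 54.9) in Ctrl E8.5 and 21.0 UPM (15.3 to 28.3) in cKO E8.5, but 6.31 UPM (4.74 to 8.23) in Ctrl E9.5 against 16.2 UPM (11.8 to 21.8) in cKO E9.5, so that cKO was lower at the earlier stage and higher at the later one. Endothelial cells numbered 103, 78, 421 and 145, and the difference between the stages was not tested.

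Cardiomyocytes, which are not known to express these genes, were taken as a comparison for free RNA, whose level was not measured. After thinning, Tcf15 was seen in 0 of 21, 1 of 21, 1 of 120 and 1 of 72 cardiomyocytes, the 0 of 21 allowing a share of up to 14.3% with a floor of 3 cells. Meox1 was seen in 4.76%, 4.76%, 11.7% and 9.72% of them. It was seen in 2.03% of endothelial cells of Ctrl E9.5, below the cardiomyocyte share of that library. The cardiomyocyte share there is therefore not a measure of free RNA alone. The median depth of cardiomyocytes was 15515.5 to 22787 UMIs and that of endothelial cells 17362 to 25787. In the cKO E9.5 cardiomyocytes 80.0% of the 15 Tcf15 UMIs came from 1 cell, so their interval is too narrow.

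Meox1 in the broad progenitor group was 91.3 UPM (86.4 to 96.3) in Ctrl E8.5, 159.9 UPM (153.6 to 166.4) in cKO E8.5, 63.6 UPM (60.3 to 67.1) in Ctrl E9.5, while cKO E9.5 had 166.8 UPM (162.7 to 170.9). On the log2 scale, cKO over Ctrl was 0.81 (0.71 to 0.91) at E8.5 and 1.39 (1.31 to 1.48) at E9.5. In mesenchyme the ratio was -0.34 (-0.77 to 0.08) at E8.5 and 0.87 (0.78 to 0.96) at E9.5, from 46.9 and 85.8 UPM at E9.5. Endothelial cells had 3.04 UPM (1.98 to 4.45) in Ctrl E9.5 against 43.9 UPM (36.4 to 52.5) in cKO E9.5, a ratio of 3.85 (3.23 to 4.53). The control level there came from 26 UMIs, and what part of the level in either library is free RNA was not tested. Epithelial cells had 17.7 UPM (15.5 to 20) and 69.4 UPM (61.4 to 78.1), a ratio of 1.97 (1.72 to 2.23). Meox1 was higher in cKO at E9.5 also in cells meeting the branchiomeric muscle list (2.16, 1.77 to 2.58) and the heart progenitor list (2.26, 1.49 to 3.12), while the interval in cardiomyocytes, 0.80 (-0.02 to 1.62), held 0.

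As a share of cells, Meox1 was in 15.4% (9.66 to 22.8, Clopper-Pearson) of 130 thinned endothelial cells of cKO E9.5. It was in 9.72% (4.0 to 19) of its cardiomyocytes, with intervals that overlapped. By level the intervals did not overlap, at 43.9 UPM (36.4 to 52.5) in endothelial cells and 20.3 UPM (13.6 to 29.2) in cardiomyocytes. In those cardiomyocytes 37.9% of the Meox1 UMIs came from 1 cell. Epithelial cells of cKO E9.5 had Meox1 in 37.8% (31.0 to 45.1) of 193 thinned cells, above the share of its cardiomyocytes. Those of Ctrl E9.5 had it in 11.7% (9.36 to 14.3), which is the share of its cardiomyocytes but above the 2.03% of its endothelial cells. The number of Meox1 UMIs per Tcf15 UMI was 2.70 in endothelial and 14.5 in epithelial cells of cKO E9.5, and 6.27 over all its cells. In Ctrl E9.5 it was 0.481 in endothelial and 12.4 in epithelial cells, and 3.49 over all cells.

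**Figure D2:**
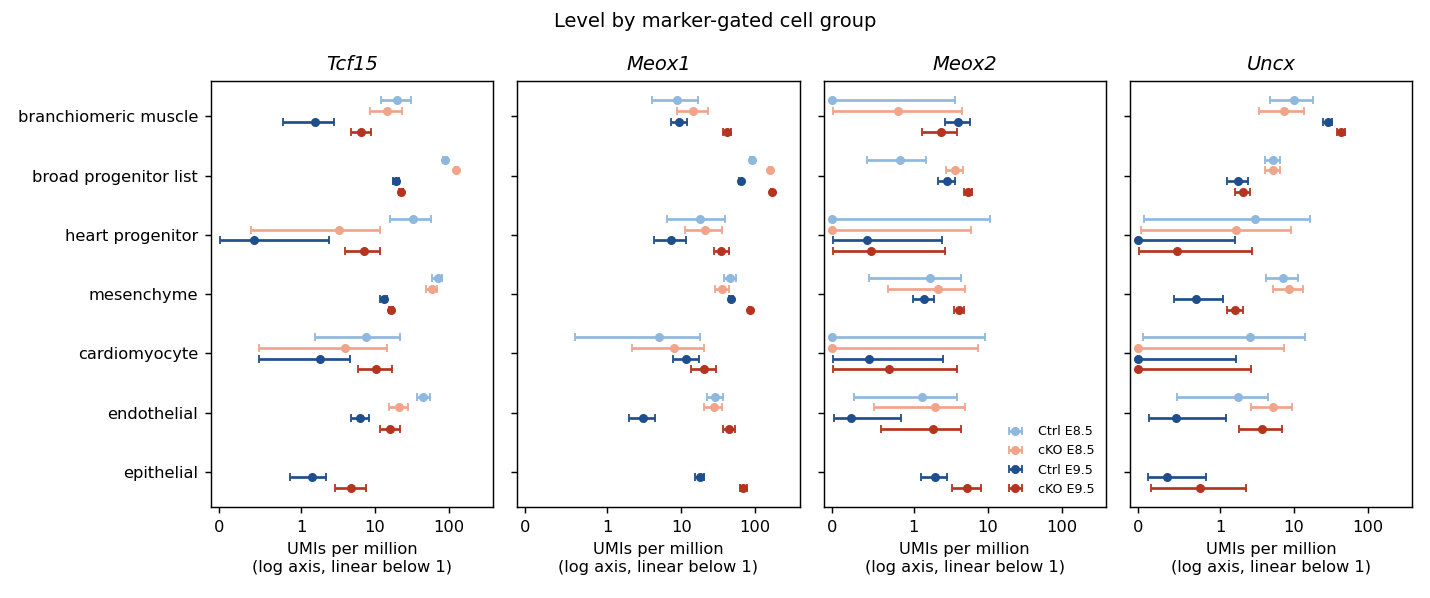
Levels of Tcf15, Meox1, Meox2 and Uncx by marker-gated cell group and library, in UPM (log axis, linear below 1), with exact Poisson 95% intervals; groups under 20 cells are left out. Meox1 in cKO E9.5 reaches 166.8 UPM in the broad progenitor group, and Uncx at E9.5 is highest in cells meeting the branchiomeric muscle list.

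**Figure D3:**
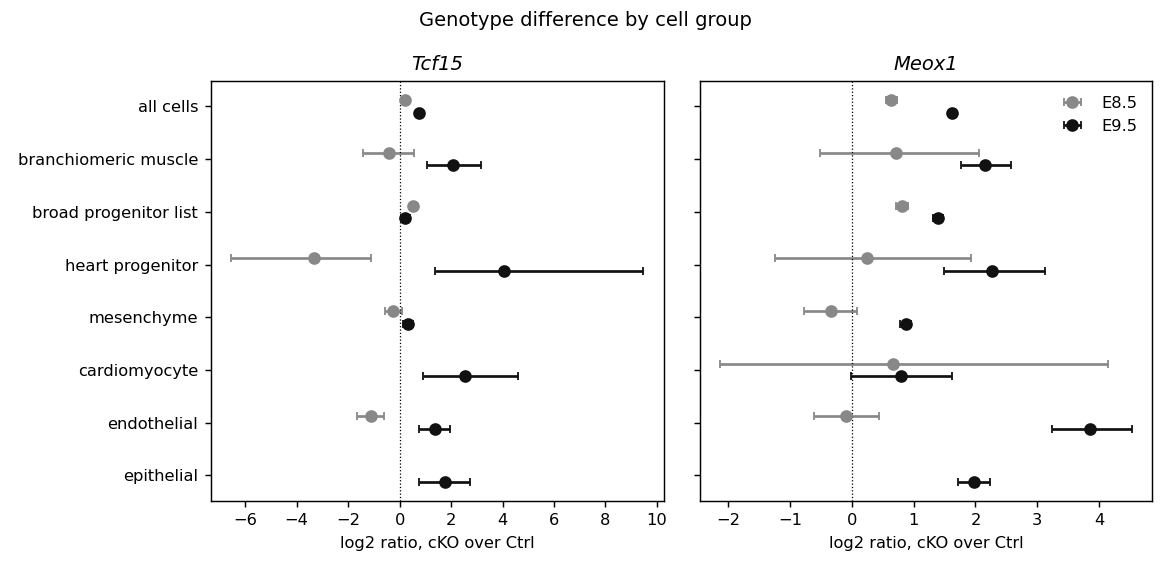
Log2 ratio of cKO over Ctrl for Tcf15 and Meox1 in all cells and in 7 marker-gated groups, at E8.5 (grey) and E9.5 (black), with 95% intervals for counting error; the dotted line marks equal levels. Among the groups drawn, Meox1 at E9.5 runs from 0.80 in cardiomyocytes to 3.85 in endothelial cells, and Tcf15 in endothelial cells is -1.11 at E8.5 and 1.36 at E9.5.

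Meox1 was higher in cells with UMIs of anterior Hox genes, which mark the caudal part of the pharyngeal and heart fields. In cells with at least 3 UMIs over Hoxa2, Hoxa3, Hoxb1, Hoxb2 and Hoxb3, Meox1 was 124.0 UPM in Ctrl E8.5, 170.8 UPM in cKO E8.5, 67.8 UPM in Ctrl E9.5, while cKO E9.5 had 190 UPM. In cells with none of them it was 35.5, 38.9, 14.4 and 37.4 UPM, and each interval of the Hox-rich cells lay above that of the Hox-free cells of its library. The log2 ratio of cKO over Ctrl at E9.5 in cells with 0, with 1 or 2 and with at least 3 Hox UMIs was 1.38 (1.25 to 1.51), 1.42 (1.33 to 1.52) and 1.49 (1.41 to 1.57), with intervals that overlapped. The E8.5 values were 0.13 (-0.06 to 0.32), 0.49 (0.35 to 0.63) and 0.46 (0.31 to 0.61). Cells with at least 3 Hox UMIs made up 13.2%, 26.0%, 21.3% and 25.8% of the libraries in the same order. The split was made without thinning, so these shares also depend on depth. The median cell held 17223, 23883, 16567 and 15887.5 UMIs of the shared genes.

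Cells with Arg1, which encodes arginase 1, were rich in Meox1 too. Among cells that met no lineage list and held at least 2 Arg1 UMIs (441, 461, 522 and 1278 cells), Meox1 was 144.9 UPM (136.7 to 153.4), 200.3 UPM (192.4 to 208.5), 85.4 UPM (79.6 to 91.6) and 212.2 UPM (206.3 to 218.3). It was seen in 57.0%, 66.0%, 35.5% and 65.1% of the thinned cells of this group. Tcf15 in the same cells was 142.9, 145.3, 23.2 and 22.7 UPM, so the genotypes differed by 0.02 (-0.08 to 0.13) at E8.5 and -0.03 (-0.26 to 0.20) at E9.5 on the log2 scale, as Meox1 differed by 0.47 (0.37 to 0.57) and 1.31 (1.20 to 1.42). Cells with Zic1 and Msx1 had little of either gene in Ctrl E9.5, with Tcf15 at 2.59 UPM (1.24 to 4.77) and Meox1 at 3.37 UPM (1.79 to 5.76), and more in cKO E9.5, at 22.7 UPM (19.3 to 26.5) and 21.5 UPM (18.2 to 25.2). These single-gene and pair groups, and the split by Hox and Pax3, were chosen after values had been seen.

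Tcf15 in the E9.5 cKO library had a high level in cells with Pax3, although most of its UMIs lay outside them. Pax3 is a paired-box gene of the dermomyotome, the dorsal neural tube and the neural crest. Cells with Pax3 numbered 104, 99, 44 and 85. In them Tcf15 was 162.4 UPM (146.8 to 179.1) in Ctrl E8.5, 222.4 UPM (205.6 to 240.1) in cKO E8.5, 1.11 UPM (0.028 to 6.17) in Ctrl E9.5, while cKO E9.5 had 180.4 UPM (161.7 to 200.7). Without thinning, Tcf15 was seen in 67.3% (57.4 to 76.2), 78.8% (69.4 to 86.4), 2.27% (0.0575 to 12) and 65.9% (54.8 to 75.8) of the Pax3 cells, so that Ctrl E9.5 stood apart from the other 3 libraries. The median depth of the Pax3 cells was 21065.5, 28131, 17265 and 20611 UMIs. Pax3 cells were 1.36% of cKO E9.5 and held 18.5% of its Tcf15 UMIs, 11% of its Meox2 UMIs and 2.60% of its Meox1 UMIs. Without them, the log2 ratio of cKO over Ctrl at E9.5 was 0.49 (0.37 to 0.61) for Tcf15, 1.07 (0.82 to 1.33) for Meox2 and 1.60 (1.54 to 1.66) for Meox1.

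The Pax3 cells of both E9.5 libraries differed in other genes, whose shares were also taken without thinning. In cKO E9.5, 21.2% held Dmrt2 and 14.1% Myf5, genes of the dermomyotome and of muscle precursors, and Foxc2, a paraxial mesoderm gene, was in 40.0%. In Ctrl E9.5 these were in 0.0%, 2.27% and 2.27%, and Sox2, a gene of neural and foregut progenitors, was in 70.5% of the cells, against 14.1% in cKO E9.5. Zic1 was in 47.7% and 47.1%. A difference in how much of the back each dissection took cannot be told apart from a difference by genotype.

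**Figure D4:**
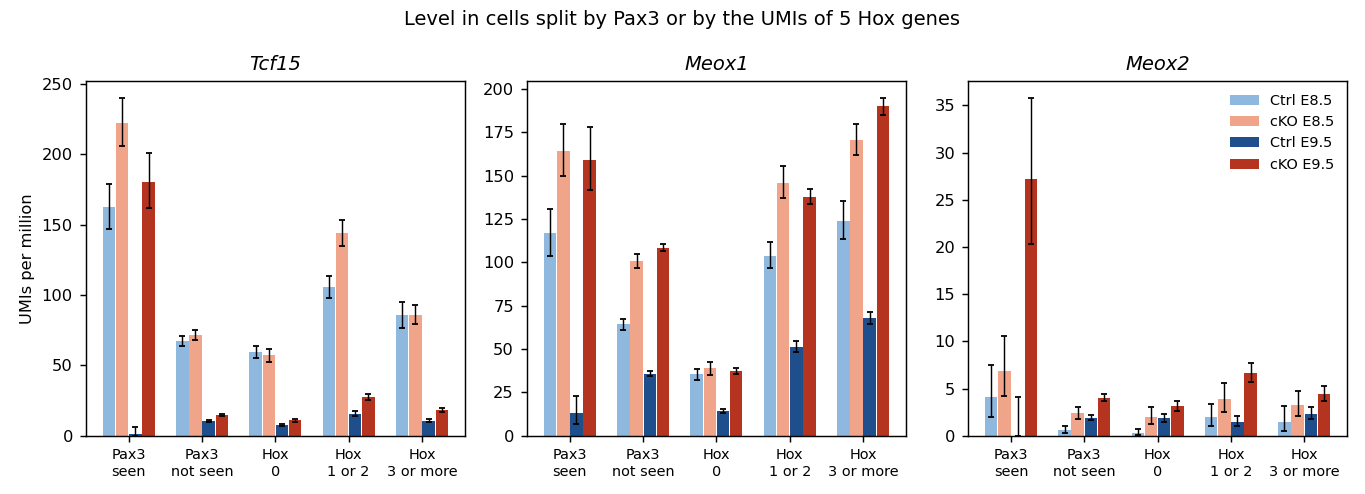
Levels of Tcf15, Meox1 and Meox2 in UPM in cells with and without a Pax3 UMI, and in cells with 0, 1 or 2, and 3 or more UMIs over 5 Hox genes; bars start at 0 and error bars are exact Poisson 95% intervals. In Pax3 cells Tcf15 is 1.11 UPM in Ctrl E9.5 and at least 162.4 UPM in the other 3 libraries, and Meox1 is higher with more Hox UMIs in each library.

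Uncx UMIs lay in different cell groups at each stage. At E8.5 they were spread, with 62.5% (Ctrl) and 56.6% (cKO) of its UMIs in the broad progenitor group and 8.33% and 6.62% in cells meeting the branchiomeric muscle list (with markers such as Tcf21, Msc, Lhx2 and Ebf1). At E9.5 the muscle list cells, 338 in Ctrl and 326 in cKO, held 63.1% and 57.7% of the Uncx UMIs. The level in them was 9.83 UPM (4.71 to 18.1) in Ctrl E8.5, 7.29 UPM (3.33 to 13.8) in cKO E8.5, 28.5 UPM (24.7 to 32.7) in Ctrl E9.5, while cKO E9.5 had 43.4 UPM (38.4 to 48.8). Of the check markers of this group, Tlx1 was 3.40-fold higher than in other cells in Ctrl E9.5 but 1.32-fold in cKO E9.5, and Ebf2 was 1.42-fold and 1.08-fold, with 10 UPM added, so the name rests on the list.

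In the muscle list cells the log2 ratio of Uncx, cKO over Ctrl at E9.5, was 0.61 (0.34 to 0.88). In mesenchyme Uncx was 7.13 UPM (4.15 to 11.4) and 8.48 UPM (5.18 to 13.1) at E8.5 and 0.707 UPM (0.438 to 1.08) and 1.59 UPM (1.23 to 2.03) at E9.5, a stage ratio of -3.33 (-4.33 to -2.32) in controls and -2.41 (-3.15 to -1.61) in cKO. The opposite stage ratio held in the muscle list cells, at 1.54 (0.63 to 2.62) and 2.57 (1.63 to 3.72). After thinning, 17.2% (13.3 to 21.8) of these Ctrl E9.5 cells had Uncx, as did 25.4% (20.7 to 30.6) of the cKO E9.5 cells, against 0 of 120 and 0 of 72 cardiomyocytes, which with the same floor allow shares of up to 2.50% and 4.17%. Before thinning the shares were 25.4% and 33.7%.

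Meox2 rested on few cells, since 25 cells (Ctrl) and 81 cells (cKO) of the E9.5 libraries held 2 or more of its UMIs. At E9.5 it was 1.38 UPM (0.99 to 1.87) and 4.04 UPM (3.45 to 4.71) in mesenchyme of Ctrl and cKO, 1.92 UPM (1.27 to 2.80) and 5.30 UPM (3.28 to 8.10) in epithelial cells, and 3.99 UPM (2.65 to 5.77) and 2.34 UPM (1.31 to 3.86) in muscle list cells. The interval of the muscle list ratio, -0.77 (-1.78 to 0.19), held 0. In Pax3 cells Meox2 gave 10, 20, 0 and 51 UMIs. Its level in those of cKO E9.5 was 27.2 UPM (20.3 to 35.8), and the ratio over Ctrl E9.5 was at least 3.03 on the log2 scale with a floor of 3 UMIs.

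Tcf15 and Meox1 were often seen in the same cell. Among thinned Tcf15 cells, Meox1 was seen in 49.4% (44.9 to 53.9) in Ctrl E8.5, 63.0% (57.7 to 68.0) in cKO E8.5, 45.4% (40.4 to 50.5) in Ctrl E9.5, while cKO E9.5 had 56.2% (52.2 to 60.1). Each of these was above the share in all cells of that library, given above. Among Meox1 cells, Tcf15 was seen in 61.3% and 59.6% at E8.5 but 19.4% and 16.5% at E9.5. Meox2 cells at E8.5 held Tcf15 in 9 of 10 (Ctrl) and 17 of 20 (cKO), and at E9.5 in 10 of 76 and 53 of 204. Uncx cells at E8.5 held Tcf15 in 44.9% (32.9 to 57.4) of Ctrl and 44.9% (30.7 to 59.8) of cKO, and at E9.5 in 9.71% (4.75 to 17.1) and 5.52% (2.56 to 10.2). The share in cKO E9.5 lay below the 11.2% of all its cells, and Meox1 was seen in 24.5% (18.1 to 31.9) of its Uncx cells, below the 38.3% of all cells. All cells of a library share its depth and its free RNA, so these shares describe the 4 libraries.

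**Figure D5:**
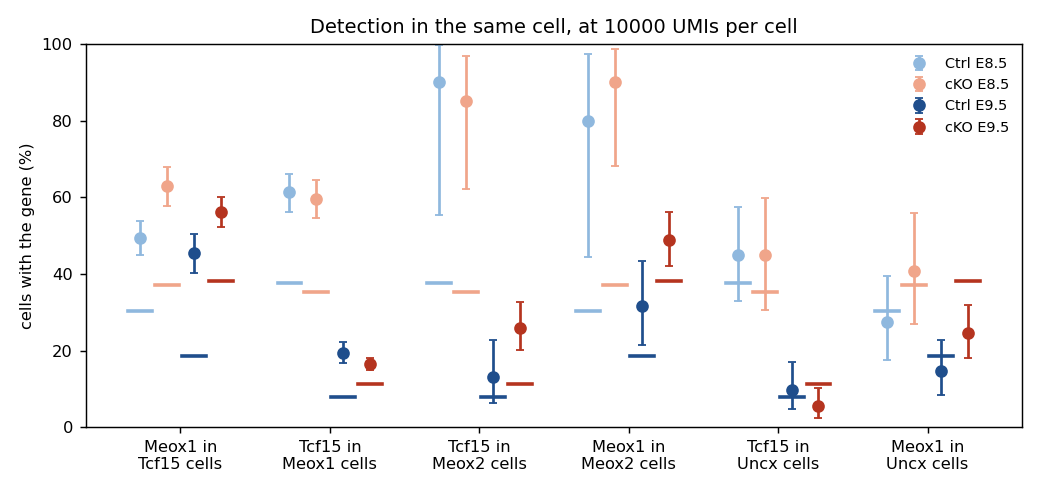
Percent of cells positive for 1 gene that also had the other, at 10000 UMIs per cell, with Clopper-Pearson 95% intervals; short lines give the share of all cells of the library with that gene. Meox1 in Tcf15 cells lies above the short line in all 4 libraries, and Meox1 in Uncx cells lies below it in cKO E9.5.

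The genes most like each member were taken from Ctrl E9.5, as the 5 with the highest level in cells with at least 2 UMIs of the member relative to cells with none, with 10 UPM added. For Tcf15 (192 cells) these included Meox1, Smoc1, Lum and Foxc2, with log2 ratios of 1.76, 1.44, 1.33 and 1.25. These 4 were also higher in the Tcf15 cells of the other 3 libraries, Foxc2 at 83.5 and 43.3 UPM with and without Tcf15 in Ctrl E8.5, for example, and Meox1 at only 0.55 in cKO E9.5. For Meox1 (710 cells) they were Tcf15, Hoxa2, Arg1, Hotairm1, a long noncoding RNA of the Hoxa cluster, and Hoxb1, from 1.44 to 1.20. In cKO E9.5 (1992 Meox1 cells) the ratio was 1.01 for Tcf15, 1.27 for Hoxa2, 1.73 for Arg1, 1.03 for Hotairm1 and 1.52 for Hoxb1.

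For Uncx (68 cells in Ctrl E9.5, 118 in cKO E9.5) the genes included Msc, Hlx, Fabp3 and Lhx2, of which Msc and Lhx2 are transcription factors of pharyngeal muscle. Their log2 ratios ran from 3.28 to 2.45 in Ctrl E9.5 but from 2.99 to 2.04 in cKO E9.5, and in the 29 Uncx cells of cKO E8.5 Msc alone of these 4 (0.60) was above 0.50. For Meox2 the 25 cells of Ctrl E9.5 gave Foxi2, Golga3, Lef1, Crabp2 and Krt8, from 2.56 to 1.29, and in the 81 cells of cKO E9.5 these genes were between -0.26 and 0.35. With so few cells the Meox2 list describes these cells alone.

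The other somite genes were called in both directions. Of a list of 32 genes, 22 had enough UMIs between genotypes at E8.5, and 0 were called either way, with a median log2 ratio of 0.25. At E9.5, 2 of 28 were called higher in cKO and 5 lower, beside 3.56% and 9.80% of all genes, with a median of -0.21 against -0.26 for all genes. The parts of the list differed, with medians of 0.88 over 8 dermomyotome and myotome genes, -0.60 over 8 sclerotome and tendon genes and -0.44 over 7 presomitic and segmentation genes. Most of the dermomyotome and myotome genes rested on few UMIs. Pax3 and Myf5 had the most of them and went opposite ways. Pax3 was 0.81 (0.43 to 1.21) from 164 and 84 UMIs, and Myf5 -0.65 (-0.98 to -0.33) from 134 and 190 UMIs. Pax1, a gene of sclerotome and of the pharyngeal pouches, was 3.52 UPM in cKO and 18.1 UPM in Ctrl (log2 -2.36, -2.53 to -2.20), and Lfng, a Notch modulator of segmentation, was 2.06 and 6.10 UPM (-1.56, -1.80 to -1.33). Pax7 (-2.74, -5.14 to -0.96, from 3 and 18 UMIs), Ripply1 (-1.86) and Tbx6 (-1.40, from 8 and 19 UMIs) were also lower. Lbx1 (1.78, from 19 and 5 UMIs) and Sim1 (1.19, from 33 and 13 UMIs), genes of the dermomyotome and its migrating muscle precursors, were higher. The epithelial group at E9.5 made up 13.5% of the control library (737 cells) but 3.21% of the cKO library (201 cells). Cells with Pax1 that met no lineage list, a group chosen after values were seen, numbered 44 (0.807%) in controls, while cKO had 55 (0.878%). Whether the mix of cell groups accounts for the lower Pax1 or for the medians of the list was not tested.

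Across stage in controls, 8 of 25 list genes were called higher and 4 lower, beside 17.9% and 2.98% of all genes. Pax1 had a log2 ratio of 5.51 (4.63 to 6.58), Myf5 3.08, Tbx6 2.35 (-0.31 to 7.72, from 19 UMIs at E9.5 and 1 at E8.5) and Pax9 2.09, while Pax3 had -2.73 (-3.13 to -2.33), En1 -6.86 (-12.20 to -4.27, from 1 and 31 UMIs), Sim1 -1.90 and Dmrt2 -1.83. In cKO, 5 of 26 were called higher and 4 lower, beside 11.3% and 5.94% of all genes, among them Pax1 (2.69), Myf5 (2.72), Pax3 (-2.17), En1 (-3.98) and Ripply1 (-1.92). Msgn1, a gene of the presomitic mesoderm, gave 0 UMIs in all 4 libraries. Tcf3, Tcf4 and Tcf12, which encode the E proteins that pair with factors such as Tcf15, were not called in any of the 4 comparisons.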

How the data were processed

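The deposited values were UMI counts (no scaling by the authors) in 4 gene-by-cell matrices, made with Cell Ranger 3.1.0 (per the submitters' notes; 3.0.2 in the headers of the E8.5 matrices) on mm10. The cKO E9.5 library was counted on another gene table (31053 genes; 27998 in the others), and the 27514 shared identifiers were used.

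Counts were summed over cells of a group and divided by the group's UMIs (UPM, per 1000000). Levels were given for groups of at least 20 cells. Ratios carry exact conditional binomial 95% intervals, and differences of shares Newcombe intervals. For shares, cells were thinned to 10000 UMIs (seed 1), except for the shares within Pax3 cells. The Hox and Pax3 splits were made on counts that were not thinned. Cells meeting several of the 6 lineage lists were left out of groups, and no doublet caller was run. The calculations were tested on simulated counts. TMM factors came from edgeR 4.0.16, and the rest from numpy 2.4.6 and scipy 1.17.1. With 1 library a group there was no test. Members and lists were chosen with earlier results of these data known. Text names the 5 members, Tbx1, list genes past 2-fold (up to 8 a comparison) and the 5 genes most like each member, except some genes that are not reported here; Pax3, Hox, Arg1 and the pair groups were added after values were seen.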

Additional observations from a re-analysis of the deposited data

Results flagged for a closer look

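Tcf15 differed between genotypes in opposite directions among the cell groups of E8.5, with log2 ratios of cKO over Ctrl of 0.51 in the broad progenitor group, -1.11 in endothelial cells and -3.33 in the heart progenitor list cells, where it rested on 2 and 11 UMIs (-6.54 to -1.13). At E9.5 the ratio was 1.36 in endothelial cells and 4.07 in the heart progenitor list cells, from 15 and 1 UMIs (1.37 to 9.46), so both groups had turned to the other side. Meox1 in endothelial cells had a ratio of E9.5 over E8.5 of -3.25 in controls and 0.69 in cKO. There 1 cell gave 38.8% (Ctrl) and 40.4% (cKO) of the E8.5 UMIs, and the Ctrl E9.5 level came from 26 UMIs. What part of these levels is free RNA was not tested. The differences between groups, stages and genotypes were not tested, since each value comes from 1 library.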

How the results depend on the processing

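No member changed the direction of a library ratio under any alternative except Meox1 from E8.5 to E9.5 in cKO, which stayed near 0, and no paired analysis was possible because each group was 1 library. TMM scaling gave log2 ratios of cKO over Ctrl at E9.5 of 1.03 for Tcf15, 1.88 for Meox1, 1.49 for Meox2 and 0.71 for Uncx, and stage ratios in controls of -3.23 for Tcf15, -1.28 for Meox1 and -0.82 for Uncx, which moved Tcf15 at E9.5 and Meox1 across stage past 2-fold. Meox2 across stage in controls, at 0.99, passed 2-fold with thinned cells (1.09), without endothelial cells (1.16), without Pax3 cells (1.63) and without shared barcodes (1.02). With TMM scaling, 1628 genes were higher and 785 lower across stage in controls. At E9.5, TMM scaling gave 43.7% higher among the genes called between genotypes, against 26.7%, as the shift of 0.26 by construction moves all genes. Thinned cells gave 0.11 for Tcf15 at E8.5, -0.83 for Meox1 and -0.88 for Uncx across stage in controls, and -2.25 for Tcf15 and 0.14 for Meox1 across stage in cKO. Without endothelial cells Meox1 at E9.5 was 1.52, and across stage in cKO Tcf15 was -2.44 and Meox1 -0.05. Without Pax3 cells, chosen after seeing the data, Tcf15 was 0.09 at E8.5, 0.49 at E9.5 and -2.71 across stage in controls, and Meox1 was -0.84 across stage in controls and 0.11 in cKO. Leaving out shared barcodes or low-quality barcodes moved none of 16 ratios each by more than counting error.

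The genotype difference in the share of cells, in percentage points, was 1.99 (Tcf15 E8.5), 1.49 (Tcf15 E9.5), 16.0 (Meox1 E9.5) and 0.341 (Meox2 E9.5) with at least 2 UMIs asked for. At 5000 UMIs per cell it was 2.55, 2.02, 15.4 and 1.06 in the same order, so Tcf15 at E8.5, whose interval held 0, took the other sign. Not thinned it was 3.6 (Meox2 E8.5), 21.5 (Meox1 E9.5) and 3.07 (Meox2 E9.5). With at least 100 UMIs, the genes called higher and lower were 139 and 41 (genotype E8.5), 322 and 914 (genotype E9.5), 1651 and 238 (stage, controls) and 964 and 472 (stage, cKO), since fewer genes were counted, and Meox2 at E8.5, from 74 and 24 UMIs, was then no longer among them. Other causes were not tested. Ratios in the somite list cells were not run, as fewer than 20 cells were placed by the list in at least 3 libraries, also with 4 markers or thinned cells. With at least 1 UMI of a member asked for, 3 of the 5 genes most like Tcf15 (Foxc2 not among them), 1 of 5 for Meox2 and all 5 each for Meox1 and Uncx were chosen again. Depth limits Nkx3-2, and Meox2 by cell group.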

Other observations

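Meox1 was also read in smaller cell groups. Among cells meeting the neuronal list it gave 0 UMIs in the 20 cells of Ctrl E9.5 and 91 UMIs in the 63 cells of cKO E9.5, or 67.5 UPM (54.3 to 82.8). That interval is too narrow, since 24.2% of the 91 UMIs came from 1 cell. Among the cells meeting more than 1 lineage list, 46 in each E9.5 library, it was 9.15 UPM (4.39 to 16.8) in Ctrl and 86.7 UPM (70.1 to 106.1) in cKO. There 1 cell gave 30.0% of the UMIs in Ctrl and 20.2% in cKO. Some of these cells may be doublets, which were not looked for. In cells with Foxf2 and Foxl1, 218 and 175 at E9.5, Meox1 was 25.2 UPM (20.3 to 31.0) and 47.5 UPM (40.3 to 55.6), while Tcf15 was 22.2 UPM (17.6 to 27.6) and 24.2 UPM (19.1 to 30.2). Among the mesenchyme cells with both genes, 60 and 58, Meox1 was 32.3 UPM (21.5 to 46.7) and 32.1 UPM (21.7 to 45.8). Their cKO over Ctrl ratio was -0.01 (-0.80 to 0.79) on the log2 scale.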
